A study of Mus musculus with 48 samples.

Results

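Cortical mRNA of 9 antioxidant enzymes was followed across the 12 groups of mice exposed to nPM or filtered air. They are the superoxide dismutases *Sod1*, *Sod2* and *Sod3*, catalase (*Cat*), the glutathione peroxidases *Gpx1*, *Gpx3*, *Gpx4* and *Gpx8*, and peroxiredoxin 6 (*Prdx6*). They were chosen by symbol, and all 9 were found among the 27082 genes used from the B6 table and the 18939 used from the *APOE*-TR table. RNA came from the cerebral cortex of 48 mice, 4 for each sex, genotype and exposure. The 16 B6 (C57BL/6J, wild type) mice were labelled 4 months of age and exposed for 8 weeks. The 32 *APOE*-TR mice were labelled 6 months of age and exposed for 15 weeks, and in them a human *APOE*3 or *APOE*4 allele replaced the mouse gene by targeted replacement. Both exposures ran for 5 h per day on 3 days per week, with filtered air for the controls (ctrl) and nPM, a nano-sized fraction of urban particulate matter, for the others. Numbers given after mice are the animal numbers of the labels, except 1 *APOE*3 control female whose column carries a number, F6, that no sample label has, and which was used by the group in its name.

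Superoxide dismutases turn superoxide into hydrogen peroxide: *Sod1* is the copper-zinc enzyme of the cytosol, *Sod2* the manganese enzyme of mitochondria, and *Sod3* is secreted into the extracellular space. Hydrogen peroxide is then removed by catalase in peroxisomes and by the peroxidases. *Gpx1*, a cytosolic and mitochondrial selenoprotein, reduces soluble peroxides with glutathione, *Gpx4* is the selenoprotein that reduces phospholipid hydroperoxides in membranes, *Gpx3* is secreted, and *Gpx8* is a membrane protein of the endoplasmic reticulum. *Prdx6* uses a single catalytic cysteine, and in brain it is known mainly from astrocytes. Several antioxidant genes are targets of NRF2, the transcription factor that binds antioxidant response elements. *Gpx3* was among the genes that the study printed for NRF2 from these same mice, so its values are no independent evidence for that set.

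The core of the antioxidant response element, TGACNNNGC, was searched on both strands in RefSeq promoter windows of GRCm38.p6, from 250 bases before to 50 bases after each annotated start. It was present in 12.4% of 32851 windows. Of the 7 genes with a window, 1 held it, and this was *Sod1*, on the strand opposite to the gene, from 56 to 48 bases before the start. The windows shown are those of *Sod1*, *Gpx1* and *Gpx4*, whose levels moved together over the 32 *APOE*-TR mice, and that of *Gpx3*. Among the members tested in B6 mice *Gpx3* had the largest nPM differences, short of the criterion. The *Sod1* window lies at chr16:90220512-90220811, *Gpx1* at chr9:108338830-108339129, *Gpx4* (the second of 4 windows) at chr10:80053315-80053614 and *Gpx3* at chr11:54902604-54902903, all on the plus strand, and capitals mark the element.
Sod1: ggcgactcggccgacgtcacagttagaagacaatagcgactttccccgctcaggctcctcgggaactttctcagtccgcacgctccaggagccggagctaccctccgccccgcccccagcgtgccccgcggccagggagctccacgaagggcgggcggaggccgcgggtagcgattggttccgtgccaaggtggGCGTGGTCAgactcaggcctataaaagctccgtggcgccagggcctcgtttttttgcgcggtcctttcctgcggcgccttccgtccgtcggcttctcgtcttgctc
Gpx1: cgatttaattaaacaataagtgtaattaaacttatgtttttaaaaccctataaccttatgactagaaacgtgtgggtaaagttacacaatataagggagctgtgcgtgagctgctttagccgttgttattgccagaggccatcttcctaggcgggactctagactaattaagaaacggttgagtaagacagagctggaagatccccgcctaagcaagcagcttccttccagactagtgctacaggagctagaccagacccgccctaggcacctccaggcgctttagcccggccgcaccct
Gpx4: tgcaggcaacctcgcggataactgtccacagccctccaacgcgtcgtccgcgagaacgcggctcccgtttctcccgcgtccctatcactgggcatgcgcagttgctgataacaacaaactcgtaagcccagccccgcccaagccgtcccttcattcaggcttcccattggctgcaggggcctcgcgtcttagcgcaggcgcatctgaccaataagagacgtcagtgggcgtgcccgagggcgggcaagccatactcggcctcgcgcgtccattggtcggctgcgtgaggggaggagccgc
Gpx3: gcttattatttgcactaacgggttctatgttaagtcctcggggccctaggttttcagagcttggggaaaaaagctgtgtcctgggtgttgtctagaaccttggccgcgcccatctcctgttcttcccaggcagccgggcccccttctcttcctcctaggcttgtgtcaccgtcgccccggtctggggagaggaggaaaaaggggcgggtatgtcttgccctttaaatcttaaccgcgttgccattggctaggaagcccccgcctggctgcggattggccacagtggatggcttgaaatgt
A match of these letters is a description of the window, and the windows without one say nothing of NRF2 at these genes.

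Values are CPM as deposited, and the reads behind them were estimated from the lowest value of each mouse, which was taken as that of a gene without reads. Listed genes held 2.05 M to 24.4 M estimated reads in B6 mice and 17.8 M to 31.3 M in *APOE*-TR mice. The tables were made separately, so levels are compared within each. Libraries were described by their transcript length slope, fitted over genes between log2 transcript length and each gene's log2 level less its table mean, so that below 0 long transcripts read low. It was -0.56 in *APOE*3 control female 61 and -0.40 in F6, the lowest of the 32 *APOE*-TR mice, against 0.058 to 0.145 in *APOE*-TR males. *COX1* took 6.68% and 6.02% of the listed values in these libraries and 2.16% to 4.78% in the other *APOE*-TR mice. The main results of comparisons that include 61 and F6 are given with and without them. The deposited CPM of the listed genes summed to 880442 in 61 and 792914 in F6, against 670445 to 739008 in the other *APOE*-TR mice. In B6 mice these sums were 526568 to 667121. CPM given for single mice are not rescaled for these sums, while the main fits used TMM scaling. In bulk cortex, fewer cells of a type and less RNA per cell cannot be told apart.

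Per kb of median transcript length (GENCODE, GRCm38), the 9 genes of *APOE*-TR cortex fell into 3 tiers that did not overlap over the 32 mice. *Sod1*, *Prdx6*, *Gpx4* and *Gpx1* were highest, with median levels of 83.4, 77.3, 64.6 and 57.2 CPM per kb. *Sod2* and *Cat* followed, with medians of 15.3 and 14.7. *Gpx3*, *Gpx8* and *Sod3* were lowest, with medians of 2.63, 2.41 and 1.69 CPM per kb. Within each tier the ranges of neighbouring genes overlapped, so their order is not fixed by these mice. In GRCm38 these genes span chr9:108338903-108340343 (*Gpx1*), chr11:54902453-54910377 (*Gpx3*), chr10:80047166-80056439 (*Gpx4*), chr13:113042753-113046410 (*Gpx8*), chr16:90220754-90226329 (*Sod1*), chr17:13006846-13040063 (*Sod2*), chr5:52363791-52371418 (*Sod3*), chr2:103453849-103485160 (*Cat*) and chr1:161240112-161251219 (*Prdx6*), and values are per whole gene. In B6 cortex *Gpx1* led with a median of 47.3 CPM per kb, followed by *Prdx6* (32.9), *Gpx4* (30.7) and *Cat* (28.8), again with overlapping ranges.

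*Sod1* did not keep its place between the tables. Its deposited level was 0.416 to 5.23 CPM in B6 mice, from as few as 11 estimated reads, and 46.4 to 147 CPM in *APOE*-TR mice. The ratio of the table medians was 25.5 for *Sod1*, against a median ratio of 1.74 over 13417 genes, and it ranged from 0.380 for *Sod3* to 2.35 for *Prdx6* among the other 8 genes. *Sod1* overlaps the opposite-strand gene *Scaf4* over 650 bases, and all 3658 bases of *Gpx8* lie inside *Cdc20b* on the other strand. The libraries were stranded, but whether the counting used strand is not given in the sources used here. The strains, exposures and tables differ together, so the source of the *Sod1* difference cannot be told apart, and its B6 values carry little weight. Copies of *Gpx4* and *Prdx6* (*Gpx4-ps2*, *Prdx6-ps2* and *Prdx6b*) are also listed. The study kept only reads that mapped uniquely, so reads that these 2 genes share with their copies could have been lost.

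**Figure D1:**
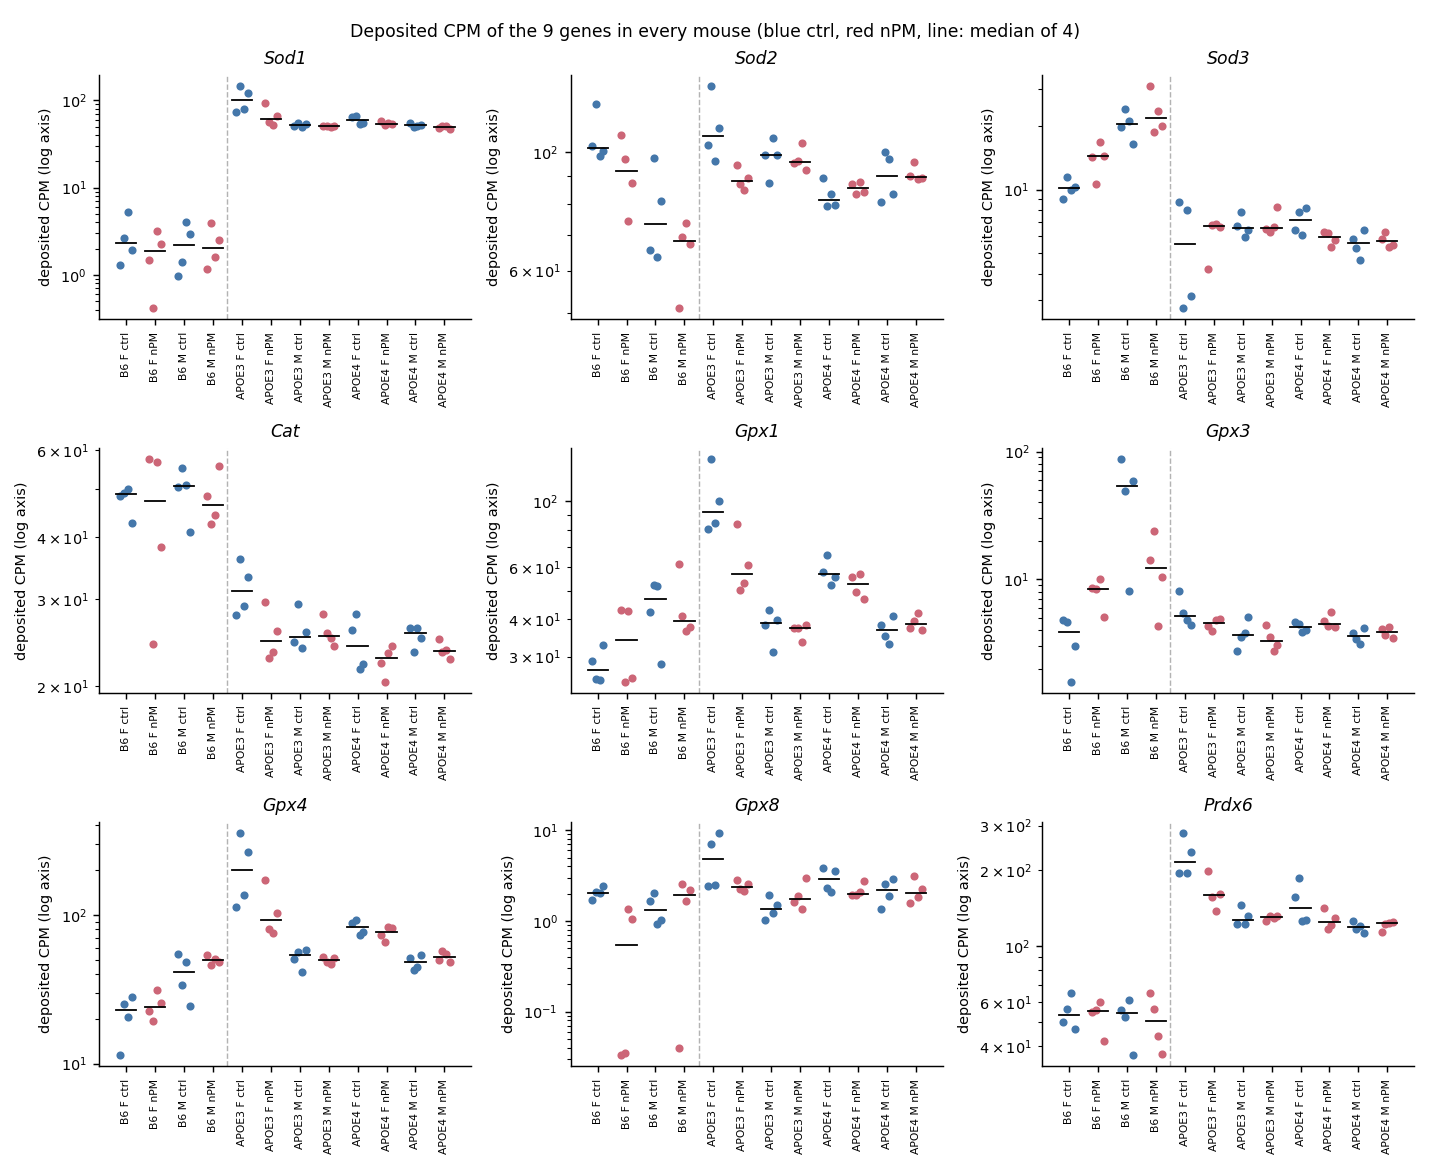
Deposited CPM on a log axis of the 9 genes in each of the 48 mice, by group (B6, *APOE*3 and *APOE*4, females F and males M), with controls in blue, nPM in red, the median of 4 mice as a line, and a dashed line between the tables. *APOE*3 control females ran from 113 to 356 CPM of *Gpx4*, and B6 control males from 8.07 to 87.3 CPM of *Gpx3*.

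None of the genes tested, 8 in the B6 sets (without *Gpx8*) and 9 in the others, met the study's criterion for nPM, an unadjusted p under 0.005 by limma, in any of the 6 sets of 4 exposed and 4 control mice. Among all tested genes the share that did was 1.19% (B6), 0.671% (*APOE*3) and 0.266% (*APOE*4) for females, and for males 0.24%, 0.154% and 0.178% in the same order. In the fit of all 48 mice, adjusted for sex and genotype, none of the 8 genes tested had p under 0.05, against 1.43% of 11087 genes past the criterion and 14.6% with p under 0.05. Their log2 differences (nPM minus ctrl, log2(CPM + 0.5) after TMM scaling) ran from -0.22 for *Sod1* to 0.13 for *Sod3*. Without 61 and F6 none had p under 0.05 either (0.361% of genes met the criterion), and *Gpx1* and *Gpx4* turned to 0.01 and 0.12. The fits took genes with reads in every mouse, which left *Gpx8* out in B6 mice and in all mice, because 3 B6 mice exposed to nPM had no reads of it. Without this filter its log2 difference was -1.47 to -1.40 in B6 females (adjusted p 0.586 to 0.748 by limma). In B6 males it was -0.15 to -0.11. Within the B6 mice alone (n = 16, 0.533% of genes past the criterion) none of the 8 genes had p under 0.05. Within the *APOE*-TR mice alone (n = 32, 0.695%) *Sod1* (-0.20, SE 0.086), *Cat* (-0.11, SE 0.046) and *Prdx6* (-0.15, SE 0.067) had p of 0.0249, 0.0212 and 0.0371, with an adjusted p of 0.277 each by limma, where 17% of all genes had p under 0.05. Without 61 and F6 these were -0.09, -0.08 and -0.08, no member had p under 0.05 (4.23% of genes did), and 0.273% of genes met the criterion.

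Of the 8 members tested in B6 mice, the secreted peroxidase *Gpx3* differed most between exposures. In control females it was at 4.81, 4.67, 1.58 and 3.04 CPM, and in nPM females at 8.55, 8.35, 10.1 and 5.06 CPM, from 29 to 258 estimated reads. Every exposed female was above every control female. The mean was 3.52 ± 1.52 CPM (SD, n = 4) in controls and 8.00 ± 2.10 CPM with nPM. The log2 difference was 1.18 (SE 0.378), a 2.26-fold higher level. It missed the criterion, with an unadjusted p of 0.00789 and an adjusted p of 0.388 by limma, and the exact permutation test gave p = 0.0286, the smallest that 4 against 4 mice allow (two-sided). *Gpx3* was the 1 of 8 tested members whose groups did not overlap, as did those of 6.41% of 14784 genes.

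In B6 males the same gene lay the other way. Control males had 87.3, 49.0, 8.07 and 59.1 CPM, and nPM males 14.1, 24.02, 4.28 and 10.5 CPM. Control male 3, at 8.07 CPM, fell among the exposed males, and the other 3 controls were above all of them. The log2 difference was -1.74 (SE 0.627, unadjusted p = 0.0152, adjusted p = 0.999 by limma), and the exact permutation test gave p = 0.114. Leaving out 1 mouse at a time, the male difference ran from -2.47 to -1.31, with unadjusted p from 8.31e-05 to 0.0535 by limma. The female difference ran from 0.90 to 1.38, with unadjusted p from 0.00476 to 0.0276 by limma. The lowest p came without control male 3 (adjusted p = 0.0802) and without exposed female 53, and only in these fits did *Gpx3* meet the criterion. The share of all genes that met it in these fits is not given here. No other tested member had p under 0.05 in B6 mice of either sex, where 10.4% of genes in females and 4.35% in males did.

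For *Gpx3* the female minus the male nPM response was 0.94 over all 48 mice (SE 0.324, unadjusted p = 0.00577, adjusted p = 0.252 by limma), above 99.9% of the 11087 genes but short of the criterion, which 1.96% met (13.6% had p under 0.05). Taken within the tables, it was 2.91 in B6 mice (SE 0.801, unadjusted p = 0.0016, adjusted p = 0.529 by limma), where 0.878% of genes met the criterion, and -0.04 in *APOE*-TR mice (SE 0.157, adjusted p = 0.887 by limma), where 1.25% did (0.583% without 61 and F6, with *Gpx3* at -0.15). In *APOE*-TR mice *Gpx3* stayed between 2.74 and 8.17 CPM in all 8 groups. Whether the tables differed in this was not tested. Values that stood beside *Gpx3* in B6 males were the summed neuron markers, at 1973, 2456, 4643 and 2949 CPM in control males 0, 2, 3 and 6, against 3614 to 4750 CPM in nPM males and 4274 to 6550 CPM in B6 females. Control male 3, with the lowest *Gpx3*, had the highest neuron marker sum of the control males, and the part of cell composition in the *Gpx3* values was not tested. B6 control male 6 had 2.05 M estimated reads, the fewest of all mice, with 232 reads of *Gpx3*.

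**Figure D2:**
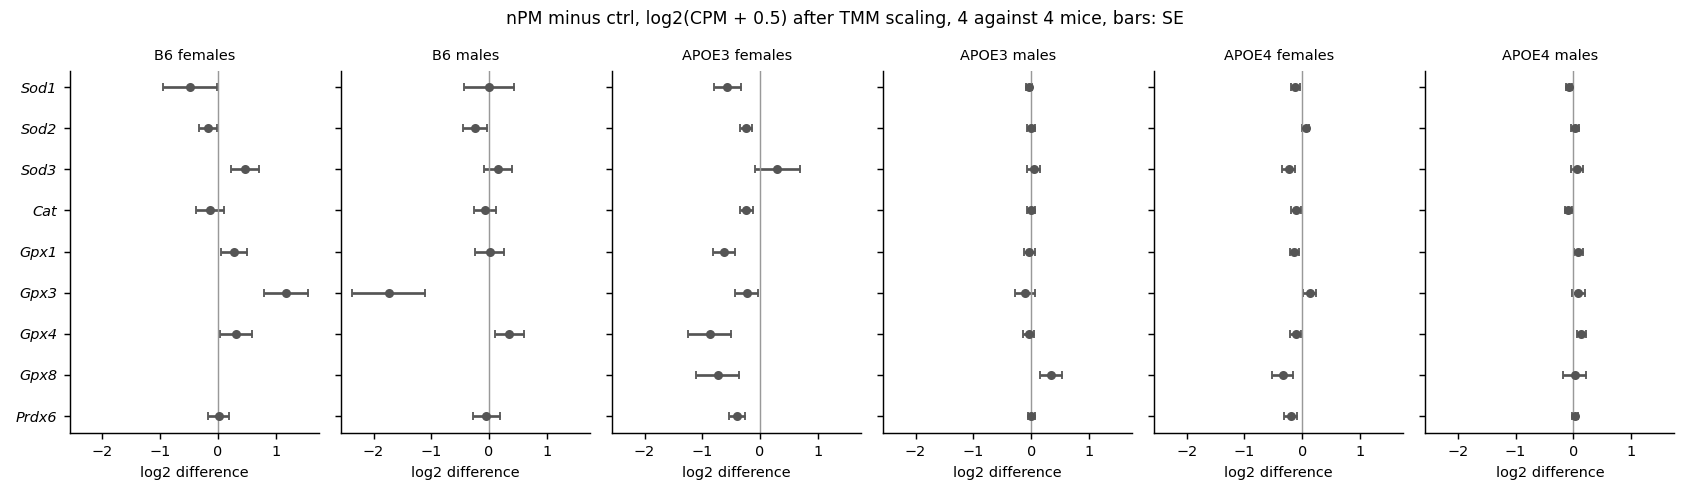
Log2 difference of nPM minus ctrl (points) with its SE (bars) for the 9 genes in each set of 4 exposed and 4 control mice. *Gpx3* lay at 1.18 in B6 females and -1.74 in B6 males, 8 of 9 genes lay below 0 in *APOE*3 females, and no gene in the *APOE*-TR males was farther from 0 than 0.35. *Gpx8* has no point in the B6 sets.

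In *APOE*3 females, 8 of the 9 genes read lower with nPM, and all 8 rested on the same 4 control mice. The phospholipid hydroperoxidase *Gpx4* was at 113, 356, 137 and 266 CPM in control females 52, 61, 63 and F6, and at 171, 80.9, 75.5 and 103 CPM in nPM females 55, 59, 67 and 70. Controls 61 and F6 stood far above the rest, and exposed female 55 was above controls 52 and 63. Cytosolic *Sod1* showed the same order, with 72.6, 147, 79.1 and 122 CPM in controls and 91.9, 56.4, 52.1 and 65.5 CPM with nPM. For *Gpx1* the controls had 80.5, 139, 84.4 and 100.2 CPM and the exposed mice 83.6, 50.4, 53.3 and 60.9 CPM. Each time exposed female 55 was the 1 mouse within the range of the controls.

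The log2 differences were -0.88 for *Gpx4* (SE 0.376), -0.73 for *Gpx8* (SE 0.370), -0.63 for *Gpx1* (SE 0.195), -0.57 for *Sod1* (SE 0.240) and -0.40 for *Prdx6* (SE 0.139). Mitochondrial *Sod2* (-0.24, SE 0.098), at 96.3 to 133 CPM in controls and 85.1 to 94.4 CPM with nPM, was the 1 member whose groups did not overlap, which held for 6.81% of genes. Of the 9 genes, 5 had an unadjusted p under 0.05, the lowest being 0.0108 for *Gpx1*, and so did 21% of all 16391 genes. Their adjusted p was 0.230 each by limma. The median difference was -0.40 over the 9 genes and -0.0029 over all genes. *Sod3*, the extracellular dismutase, went the other way, with 8.76, 2.74, 7.97 and 3.13 CPM in controls and 4.22, 6.77, 6.85 and 6.64 CPM with nPM. Here controls 61 and F6 and exposed female 55 were the lowest of the 8 mice.

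These levels followed the length slope of the libraries, which was -0.11, -0.56, -0.15 and -0.40 in controls 52, 61, 63 and F6 and -0.22, 0.00083, -0.0049 and -0.079 in exposed females 55, 59, 67 and 70. The mice with the lowest slopes, 61, F6 and 55, had the highest *Gpx4* and *Sod1* and the lowest *Sod3* of the 8. Without 61 and F6, all 9 genes read lower with nPM, none had p under 0.05 (4.86% of genes did, and 0.522% met the criterion), and the differences shrank to -0.27 for *Gpx4*, -0.20 for *Sod1*, -0.41 for *Gpx1* and -0.01 for *Gpx8*. *Sod3* then turned to -0.42, with an adjusted p of 0.908 by limma. With the slope as a covariate *Sod3* was at -0.56 with an unadjusted p of 0.00449, past the criterion, and an adjusted p of 0.666 by limma. The share of all genes past the criterion in that fit is not given here. Summed microglia markers were at 327 to 459 CPM in controls and 239 to 325 CPM with nPM, and oligodendrocyte markers at 4880 to 7101 and 3741 to 5103 CPM. All 7 fibroblast and meninges markers (median log2 difference -0.66) and all 7 choroid plexus markers (-1.05) read lower with nPM, with summed levels of 19.0 to 50.1 and 27.7 to 1489 CPM in controls and 14.1 to 28.5 and 9.38 to 97.5 CPM in exposed mice. The part of these cells in the results was not tested.

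**Figure D3:**
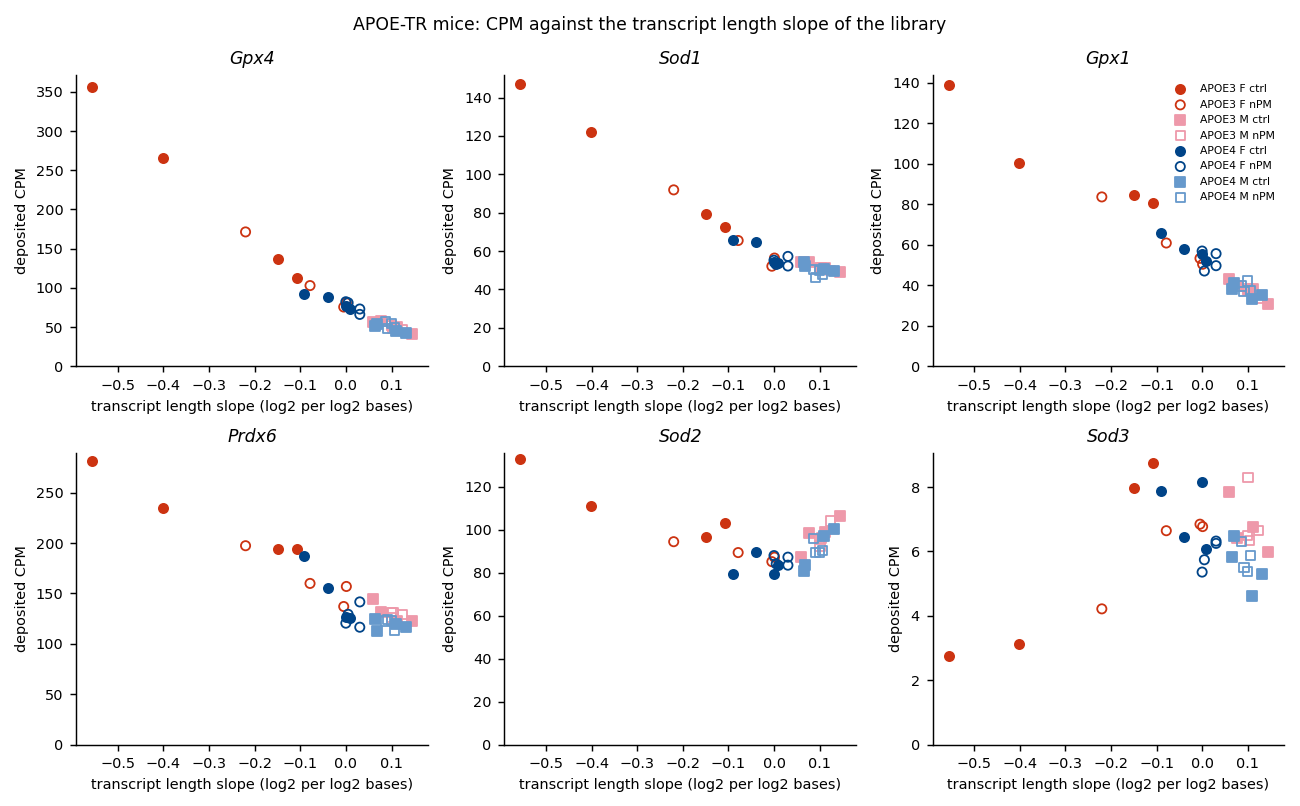
Deposited CPM of 6 of the genes against the transcript length slope of the library (log2 level per log2 bases) in the 32 *APOE*-TR mice, with controls filled, nPM open, females as circles, males as squares, *APOE*3 in reds and *APOE*4 in blues. *Gpx4*, *Sod1* and *Gpx1* were highest where the slope was lowest, in the *APOE*3 control females at -0.56 and -0.40, and *Sod3* was lowest there.

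*APOE*4 females and both sets of *APOE*-TR males gave smaller differences with nPM. In *APOE*4 females *Gpx4* was at 72.9 to 92.5 CPM in controls and 66.1 to 82.3 CPM with nPM, and *Prdx6* at 126 to 187 and 117 to 142 CPM. The largest difference there was -0.34 for *Gpx8* (SE 0.181), with no gene at p under 0.05 (5.56% of genes). In *APOE*3 males the 9 genes ran from -0.11 (*Gpx3*) to 0.35 (*Gpx8*, SE 0.195), and in *APOE*4 males from -0.08 (*Cat*) to 0.14 (*Gpx4*), again with none at p under 0.05 (2.24% and 4.19% of genes). *Sod1* had the smallest SE in *APOE*3 males (0.051), at 49.2 to 54.4 CPM in *APOE*3 control males and 49.8 to 51.4 CPM in *APOE*3 nPM males.

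The nPM response of *APOE*4 minus that of *APOE*3 females was 0.76 for *Gpx4* (SE 0.321), 0.50 for *Gpx1* (SE 0.188), 0.45 for *Sod1* (SE 0.200) and 0.30 for *Sod2* (SE 0.104). For *Gpx4*, *Gpx1* and *Sod1* this was a smaller decrease in *APOE*4, at -0.12, -0.13 and -0.12 against -0.88, -0.63 and -0.57 in *APOE*3. *Sod2* was at 0.06 in *APOE*4 and -0.24 in *APOE*3. Their unadjusted p by limma ran from 0.0067 for *Sod2* to 0.0306 for *Sod1*. None met the criterion, which 3.76% of 15971 genes did, while 29.4% of genes had p under 0.05. Without controls 61 and F6 the values for *Gpx4*, *Gpx1* and *Sod1* were 0.16, 0.29 and 0.09, and *Sod2* (0.20, adjusted p = 0.637 by limma) and *Gpx3* (0.57, adjusted p = 0.546) were the members with an unadjusted p under 0.05, against 7.82% of genes, with 1.06% past the criterion. In males no member had p under 0.05 (0.883% of genes did, and 0.0313% met the criterion).

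*APOE* alleles were compared within the *APOE*-TR mice. Over all 32 mice, adjusted for sex and nPM, 2 of the 9 genes were lower in *APOE*4 at 5% FDR, beside 5.94% of 15971 genes in either direction and 3.66% lower. They were *Prdx6*, with a log2 difference of -0.27 (SE 0.067, adjusted p = 0.0137 by limma), a 17.3% lower level, and *Sod2* with -0.14 (SE 0.042, adjusted p = 0.0394 by limma), 9.48% lower. *Cat* (-0.15), *Sod1* (-0.25) and *Gpx4* (-0.40) were next, with adjusted p of 0.0514, 0.0676 and 0.073 by limma. *Gpx1* was at -0.21 (adjusted p = 0.0949 by limma), and *Gpx3*, *Gpx8* and *Sod3* lay at -0.02, -0.01 and 0.0025. Of the 9 genes 6 had an unadjusted p under 0.05, as did 38.5% of all genes. The median over the 9 genes was -0.15 and over all genes 0.00089.

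*Prdx6* read lower in *APOE*4 than in *APOE*3 mice of all 4 sets of sex and exposure. Among control females it was at 194, 281, 194 and 235 CPM in *APOE*3 and 156, 187, 126 and 126 CPM in *APOE*4, and no *APOE*4 mouse reached the lowest *APOE*3 mouse. With nPM the females had 197, 157, 137 and 160 CPM in *APOE*3 and 142, 117, 121 and 129 CPM in *APOE*4, where the highest *APOE*4 mouse was above the lowest *APOE*3 mouse. In males the controls had 122, 145, 122 and 132 CPM against 125, 117, 119 and 113 CPM, and the nPM mice 126, 131, 129 and 131 CPM against 113, 123, 123 and 124 CPM. The control males overlapped and the nPM males did not. The log2 differences were -0.53, -0.33, -0.13 and -0.10 in these 4 sets. *Sod1*, *Sod2* and *Cat* were also below 0 in all 4 sets, as near 0 as -0.01 for *Sod1* in control males.

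Among control females, *Gpx1* (-0.70), *Gpx4* (-1.18), *Sod1* (-0.68), *Sod2* (-0.34) and *Prdx6* did not overlap between alleles, 5 of the 9 genes, as did 29.1% of all 16416 genes. *APOE*4 control females had 88.1, 92.5, 72.9 and 77.0 CPM of *Gpx4*, all below the lowest *APOE*3 control at 113 CPM. *Sod2* was at 103, 133, 96.3 and 111 CPM in *APOE*3 and 89.4, 79.4, 83.4 and 79.6 CPM in *APOE*4. None of the 9 genes met 5% FDR (0.231% of genes did), each of the 5 having an adjusted p of 0.0766 by limma. With *Cat*, 6 had an unadjusted p under 0.05, as did 41.1% of genes. This comparison shares its *APOE*3 control females with the nPM comparison in *APOE*3 females. Without 61 and F6, 6 of 9 genes had p under 0.05 (25.1% of genes), *Gpx3* in place of *Cat*, and *Gpx1* was lower in *APOE*4 at 5% FDR (-0.49, SE 0.095, adjusted p = 0.0449 by limma), where 1.85% of genes were called. *Gpx4* was then at -0.57, *Sod1* at -0.33, *Sod2* at -0.24 and *Prdx6* at -0.38, with adjusted p of 0.0521, 0.104, 0.108 and 0.158 by limma.

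With nPM, *APOE*4 and *APOE*3 females overlapped for every member (5.82% of genes did not), and *Prdx6* was the 1 member with p under 0.05 (9.12% of genes did, and 0.145% met 5% FDR). In males, *Sod3* and *Prdx6* did not overlap between alleles with nPM, 2 of 9 genes against 5.76% of all genes. These were also the members with p under 0.05 (9.89% of genes did, and 0.498% met 5% FDR). *Sod3* was at 6.49, 6.33, 6.65 and 8.29 CPM in *APOE*3 and 5.86, 6.32, 5.37 and 5.49 CPM in *APOE*4 nPM males, a log2 difference of -0.24 (SE 0.097, adjusted p = 0.455 by limma). In control males it was at 6.75, 7.83, 5.98 and 6.41 against 5.84, 5.31, 4.62 and 6.46 CPM, a difference of -0.26 (SE 0.116) with overlap. No member was without overlap in control males (3.74% of genes were), and *Sod3* and *Gpx8* (0.46, SE 0.194) had p under 0.05, as did 5.81% of genes, with 0.439% at 5% FDR. Over the 16 males *Sod3* was at -0.25 (SE 0.075, unadjusted p = 0.00334, adjusted p = 0.116 by limma), *Prdx6* at -0.11 (SE 0.037, adjusted p = 0.166) and *Sod2* at -0.10 (SE 0.047, adjusted p = 0.435), and none met 5% FDR, as 1.85% of genes did.

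**Figure D4:**
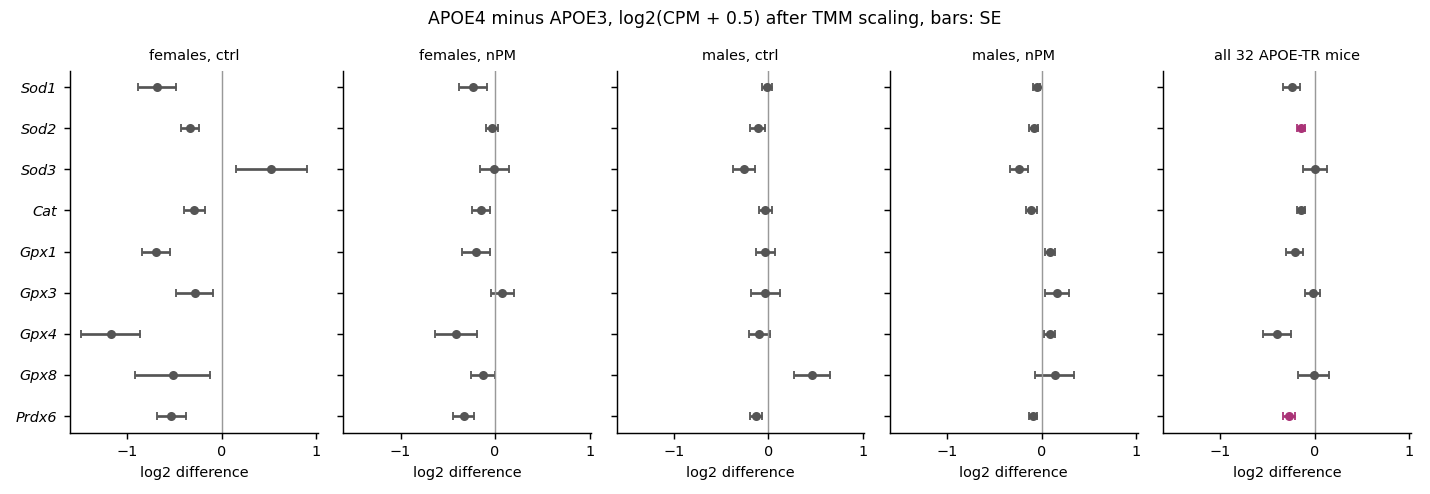
Log2 difference of *APOE*4 minus *APOE*3 (points) with its SE (bars) for the 9 genes in each set of 4 against 4 mice and in the fit of all 32 *APOE*-TR mice, with genes at 5% FDR in purple. *Prdx6*, *Sod1*, *Sod2* and *Cat* lay below 0 in every panel, and *Gpx4* ran from -1.18 in control females to 0.08 in nPM males.

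The allele difference was also compared between the sexes. Over the 16 females 6 of 9 genes were lower in *APOE*4 at 5% FDR, beside 23.5% of 16101 genes called, and without 61 and F6 none of the 9 and 1% of genes were, with *Prdx6* at -0.35 (SE 0.095, adjusted p = 0.071 by limma). The difference between the sexes (females minus males) was -0.79 for *Gpx4* (SE 0.227), -0.48 for *Gpx1* (SE 0.133), -0.43 for *Sod1* (SE 0.141) and -0.32 for *Prdx6* (SE 0.108), with adjusted p of 0.036, 0.036, 0.0402 and 0.0422 by limma. These 4 of the 9 genes met 5% FDR, and 20.6% of 15971 genes were called in this contrast. Without 61 and F6 none of the 9 genes was called for it, and of all 16116 genes 0% were, while 24.1% had p under 0.05. *Gpx4*, *Gpx1*, *Sod1* and *Prdx6* were then at -0.49, -0.37, -0.24 and -0.24, with unadjusted p from 0.00526 for *Gpx1* to 0.0307 for *Sod1* and adjusted p from 0.109 to 0.17 by limma. With the length slope as a covariate they were at -0.08, -0.13, -0.0026 and -0.08, with an adjusted p of at least 0.992.

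Beside the 32-mouse allele difference, the length slope and cell markers also moved. With the slope as a covariate none of the 9 genes met 5% FDR, and *Prdx6* alone was called without 61 and F6 (-0.21, SE 0.056, adjusted p = 0.0225 by limma), with *Sod2* at an adjusted p of 0.0581 and 4.49% of genes called. All 7 astrocyte markers read lower in *APOE*4, 2 of them (*Aqp4* and *Gja1*) at 5% FDR, with a median of -0.15 on the log2 scale, and 3 of 8 mural cell markers and 1 of 7 neuron markers were called lower. The astrocyte sum was 2812 to 4097 CPM in *APOE*3 and 3104 to 4081 CPM in *APOE*4 females, and 3452 to 3788 and 3055 to 3383 CPM in males. The part of these in the *Prdx6* and *Sod2* differences was not tested.

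*Gpx8* was at 2.45, 7.02, 2.51 and 9.38 CPM in *APOE*3 control females, with F6 and 61 highest, and at 1.03 to 3.87 CPM in the other *APOE*-TR groups. F6 also had a summed choroid plexus marker level of 1489 CPM, against 27.7 to 78.8 CPM in the other 3 controls. In the other groups the mice with the most choroid plexus RNA, such as *APOE*4 control female 38 (1185 CPM) and *APOE*3 nPM male 76 (1046 CPM), had 3.53 and 3.00 CPM of *Gpx8*. In B6 mice it held 0 to 71 reads, with 1.68 to 2.43 CPM in control females and 0.033 to 1.36 CPM in nPM females. B6 control males had 0.936 to 2.04 CPM and nPM males 0.039 to 2.55 CPM, and so few reads limit the comparison.

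Within groups, *Gpx4* and *Sod1* were the members most alike, with r = 0.97 over the 32 *APOE*-TR mice taken relative to their group means, followed by *Gpx1* with *Gpx4* (r = 0.89). Without the 8 *APOE*3 females these were 0.75 and 0.79 (n = 24), and the highest was *Sod1* with *Prdx6* at 0.83. In the 16 B6 mice they were 0.19 and 0.38. *Gpx3* had r from -0.14 to 0.08 with *Gpx1*, *Gpx4* and *Sod1* over the 32 mice and from 0.41 to 0.46 over the 24. All share libraries with the length slope, with which *Gpx4* had r = -0.97, *Sod1* -0.96, *Sod2* -0.47 and *Sod3* 0.80 over the 32 mice, and -0.88, -0.78, 0.59 and -0.42 without the *APOE*3 females. In the same order of mice, *Prdx6* had -0.78 and -0.69, *Gpx1* -0.86 and -0.77, *Cat* -0.76 and -0.77, and *Gpx8* -0.64 and -0.19. *Sod2*, *Sod3* and *Gpx3* (0.14 and -0.39) changed sign with the choice of mice. The genes most like each member over the 32 mice, by the same measure among 15971 genes, were *Rpl30*, *Rps18* and *Ndufb11* for *Sod1* (r = 0.98 each), *Cox4i1*, *Gm12338* and *Ndufa13* for *Gpx4* (0.98 to 0.99), *Rps15* and *Fau* for *Gpx1* (0.95 each) and *Cst3*, *Rnase4* and *Fth1* for *Prdx6* (0.90 to 0.92). For *Sod2* they were *Eif5a2*, *Mbnl2* and *Zfp597* (0.885 to 0.90), for *Sod3* *Fscn1*, *Numbl* and *Cdk5r2* (0.96 each), and for *Cat* *Eva1a*, *Med19* and *Lamp1* (0.87 each). *Gpx8* was closest to *Igfbp2*, *Tc2n* and *Cab39l* (0.87 to 0.90). *Gpx3* was closest to *Cacng6*, *Zcchc12* and *Magel2* (0.81 to 0.82), and *Zcchc12* was again among its 3 closest without the *APOE*3 females (r = 0.81).

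Of 49 other genes listed for the pathway in 5 lists, 1 passed a criterion in these comparisons, in which not all of the 49 were tested. The lists were other peroxidases and peroxiredoxins (9 genes), thioredoxin, glutaredoxin and glutathione reduction (11), selenoprotein synthesis and copper loading of SOD1 (9), NADPH oxidases (10), and peroxisome import and oxidases (10). The gene was *Acox3*, a peroxisomal acyl-CoA oxidase that makes hydrogen peroxide, whose nPM response in females was lower in *APOE*4 than in *APOE*3 mice by 0.44 on the log2 scale (-0.44, SE 0.126, unadjusted p = 0.00171, adjusted p = 0.126 by limma), where 3.76% of all genes met the criterion. Without 61 and F6 it was at -0.26 (SE 0.117, adjusted p = 0.605 by limma), and none of the listed genes met it (1.06% of genes did). In *APOE*3 females all 7 tested genes of the other peroxidases and 10 of 11 of the thioredoxin list read lower with nPM, with medians of -0.47 and -0.18 and none called. Between alleles in control females the same lists read lower in *APOE*4 for 7 of 7 and 11 of 11 genes, with medians of -0.58 and -0.24, again with none called and on the same *APOE*3 mice. The peroxisome list was evenly split, with 5 of 10 genes lower and medians of -0.04 and -0.06 in these comparisons. Fewest were tested of the 10 NADPH oxidase genes, 1 for nPM in B6 females and in all mice and 5 for nPM by allele in females. The untested genes count neither way.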

How the data were processed

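RNA-seq of cerebral cortex was analysed in 48 mice, grouped by the sex, genotype and exposure in their labels. Per the labels and the study's methods, the authors made stranded mRNA libraries, mapped reads to mm10 with TopHat2 2.0.8b and Partek, and deposited CPM per gene in one table for B6 and one for *APOE*-TR mice. Reads were recovered as CPM divided by the lowest value, less 1 (96.2% to 97.1% of low values of *APOE*-TR mice and 87.7% to 98.4% of B6 mice were whole within 0.1 of a step). The smallest counts limit precision. The p-values set a difference in means against the spread between mice, which limma moderates with that of other genes.

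Values were scaled by TMM (edgeR 4.0.16), taken as log2(CPM + 0.5) and tested with limma 3.58.1 (trend, R 4.3.3) on all genes above the value of no reads in every mouse, with Benjamini-Hochberg adjustment. An nPM call was an unadjusted p under 0.005 and an allele call 5% FDR, as in the study. Exact permutation tests used 70 labelings. Alternatives were another pseudocount (2), other scaling, filters (none, at least 10 reads), voom, ComBat (sva 3.50.0), shared variance, edgeR and DESeq2 1.42.0 on recovered reads, the length slope as a covariate, and each mouse left out. The steps were tested on simulated data. Added after seeing the data were fits without 2 libraries, within tables and within sexes (each with and without these libraries), and the contrast of allele differences between sexes.

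The 9 members and all lists were chosen with earlier results of these data known. All members are named, from the pathway lists those called, and for each member the 3 genes of highest Pearson r over the *APOE*-TR mice, except an item that is not reported here. Promoter windows are from RefSeq.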

Additional observations from a re-analysis of the deposited data

Results flagged for a closer look

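Single mice far from the other 3 of their group were found in 5 of the 108 combinations of gene and group, where chance marks about 1 in 20. They were *Gpx1* in *APOE*3 nPM male 58 (33.6 CPM against 37.5 to 38.2 CPM), *Sod2* in *APOE*4 nPM male 33 (95.9 CPM against 89.2 to 90.1 CPM), *Sod3* in *APOE*3 nPM male 76 (8.29 CPM against 6.33 to 6.65 CPM), *Sod3* in *APOE*3 nPM female 55 (4.22 CPM against 6.64 to 6.85 CPM) and *Prdx6* in *APOE*4 nPM male 23 (113 CPM against 123 to 124 CPM).

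The difference in nPM response between the sexes had an unadjusted p under 0.005 by limma for *Gpx3* in B6 mice (2.91, females minus males on the log2 scale, adjusted p = 0.529) and for *Gpx1* in *APOE*-TR mice (-0.41, SE 0.133, unadjusted p = 0.00453, adjusted p = 0.261). Of all genes, 0.878% in B6 mice and 1.25% in *APOE*-TR mice passed the same threshold. Without *APOE*3 control females 61 and F6 the *Gpx1* difference was -0.31 (SE 0.122, adjusted p = 0.728 by limma), and 0.583% of genes passed.

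The allele difference (*APOE*4 minus *APOE*3) differed between females and males at 5% FDR for *Gpx1* (-0.48), *Gpx4* (-0.79), *Sod1* (-0.43) and *Prdx6* (-0.32), and for none of them without these 2 libraries or with the length slope as a covariate. Over all genes 20.6% of 15971 were called in this contrast, 0% without the 2 libraries and 0% with the covariate.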

How the results depend on the processing

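Outside the leaving out of single mice, 137 of 155 counts of called members stayed at their value or within 1.5 times of it. As reported, members were called only for the alleles over 32 mice and for the allele difference between sexes. Counts that stayed at 0 are among the 137, so this number is no measure of how stable the calls were. For the alleles over 32 mice (2 called), 5 members were called with DESeq2 on recovered reads, 1 with voom, 0 with the length slope as a covariate, 1 without *APOE*3 control females 61 and F6, 6 in females only, 0 in females without 61 and F6 and 0 in males only. Among control females (0 called) 6 were called with the variance shared by all groups, 5 with DESeq2 and 1 without 61 and F6. Leaving out 1 mouse gave 0 to 5, the 5 without control female 52, a fit that kept 61 and F6. In that fit *Sod2* had an unadjusted p of 0.0113 and an adjusted p of 0.0363 by limma. Values so close arise only where many genes are called, so the 5 are not particular to these members. The share of all genes called is not given here for fits that leave out 1 mouse. For nPM in *APOE*3 females (0 called) 5 were called with shared variance and 1, *Sod3*, with the length covariate, and leaving out 1 mouse gave 0 to 1, the 1 (*Gpx1*) without exposed female 55. It also gave 0 to 1 in B6 females and in B6 males, *Gpx3* each time. The nPM response by allele in females (0 called) gave 1, *Sod2*, with no TMM and with DESeq2, and the response by sex (0 called) 1 in B6 mice only, 1 in *APOE*-TR mice only and 0 in these without 61 and F6. The allele difference between sexes (4 called) fell to 0 with the length covariate and without 61 and F6. The cause was not tested in any of these. Over all genes, calls with the variance shared rose from 38 to 8831 (alleles, control females) and from 110 to 5008 (nPM, *APOE*3 females), and over the alternatives in the other comparisons ran from 14 to 111 (alleles in nPM females, 24 as reported), 36 to 140 (alleles in control males, 74 as reported), 38 to 211 (alleles in nPM males, 84 as reported), 163 to 3786 (alleles over 32 mice, 948 as reported), 28 to 86 (nPM in B6 males, 37 as reported), 12 to 35 (in *APOE*3 males, 26 as reported), 24 to 85 (in *APOE*4 females, 44 as reported), 3 to 129 (in *APOE*4 males, 30 as reported), 40 to 191 (in all mice, 158 as reported), 171 to 857 (nPM by allele in females, 601 as reported), 3 to 13 (in males, 5 as reported), 57 to 315 (nPM by sex, 217 as reported).

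Of the values with p under 0.05 as reported or of the 3 comparisons given gene by gene (alleles over 32 mice and in control females, nPM in *APOE*3 females), 22 turned direction. For *Sod3*, the 32-mouse allele difference was -0.25 in males only, -0.089 in females without 61 and F6, -0.16 without 61 and F6, -0.23 with the length covariate, -0.05 with DESeq2 (-0.0514) and edgeR (-0.054), -0.02 with no TMM (-0.0172) and -0.0076 with a pseudocount of 2. In control females it was -0.20 without 61 and F6 and -0.48 with the length covariate, for nPM in *APOE*3 females -0.42 and -0.56, and between sexes -0.10 with the length covariate. For *Gpx8* the 32-mouse value was 0.30 in males only, 0.18 without 61 and F6 and 0.27 with the length covariate, and in control females 0.20 without 61 and F6 and 0.37 with the covariate. In males only, *Gpx1* was at 0.025 and *Gpx3* at 0.064, and the nPM response of *Gpx3* by sex was -0.041 in *APOE*-TR mice only and -0.15 in these without 61 and F6. Another 52 values in 10 comparisons turned, 2 of them with p under 0.05 in either fit: nPM over all mice for *Gpx4* (0.21 with the length covariate) and nPM by sex for *Sod3* (-0.39 in *APOE*-TR mice without 61 and F6). Over all members and comparisons, 74 of 1356 values changed sign, 11 of them with p under 0.05 in either fit, and 59 of 704 when 1 mouse was left out, none of these with p under 0.05.

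No paired analysis was made, because the groups compared held different mice. Depth limits *Gpx8* and *Sod1* in B6 mice most, where single libraries hold 0 to 119 reads of them.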
